A study of Caenorhabditis elegans with 95 samples.

Results

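The members described here are the mtDNA-encoded complex I subunits of *C. elegans*, chosen by gene identifier as the 7 genes of the mitochondrial genome that encode NADH dehydrogenase subunits. They are 7 of the 12 mtDNA protein-coding genes and of 46904 genes in the count table. The RNA-seq data were raw read counts from 95 libraries of whole worms, all exposed to 15 µg/mL doxycycline (Dox), an antibiotic that blocks translation by mitochondrial ribosomes. There was 1 library from each of 85 recombinant inbred advanced intercross lines (RIAILs), 6 libraries from the Hawaiian strain CB4856 and 4 from the Bristol strain N2. The RIAILs descend from CB4856 and QX1430, a strain of N2 background with deletions of confounder genes, so N2 stands for that parent only in part. By the paper's account, synchronized L1 larvae went onto Dox and were collected at L4 (one legend adds young adulthood), whereas the labels describe a lifespan-type protocol with 5FU, so the stage and the use of 5FU are not settled. No untreated library is used here, and levels were therefore compared between strains and not with unexposed worms. Each RIAIL is 1 library. The labels do not say whether libraries of one parental strain were grown separately, and the p-values therefore speak only of library-to-library spread, which may be technical.

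Complex I (NADH:ubiquinone oxidoreductase) takes electrons from NADH, hands them to ubiquinone and pumps protons across the inner mitochondrial membrane. Its membrane arm is built around the mtDNA-encoded subunits, and every other subunit is encoded in the nucleus and imported. *ND2*, *ND4* and *ND5* encode the large antiporter-like subunits of the proton pump. *ND1* encodes the subunit that joins the membrane arm to the matrix arm and helps to form the ubiquinone site, and *ND3*, *ND6* and *ND4L* encode small subunits between *ND1* and *ND2*. The transcripts are made and matured inside the organelle by nuclear-encoded proteins, among them the RNA polymerase *rpom-1* and the mtDNA-packaging protein *hmg-5*.

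All 7 genes lie on the plus strand of the mitochondrial chromosome (MtDNA, WBcel235) with no intron, and the annotation packs them closely. *ND6* (WBGene00010957) covers bases 113 to 549 and *ND4L* (WBGene00010958) bases 549 to 783, sharing 1 base. *ND1* (WBGene00010959) covers 1763 to 2635 and overlaps *ATP6*, an ATP synthase subunit gene that runs from 2634 to 3235. *ND2* (WBGene00010961) covers 3389 to 4269, with its coding sequence at 3418 to 4263. Its annotated ends overlap a tRNA gene at 3362 to 3416 and the first base of another at 4269. *ND4* (WBGene00010963) covers 6506 to 7808, *ND3* (WBGene00010966) 11356 to 11691, and *ND5* (WBGene00010967) 11691 to 13272, the last pair again sharing 1 base. No source used here gives the counting rule for reads in these overlaps, and nuclear copies of mtDNA were not examined.

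Totals were 22121202 to 23879871 counts per library, so depth was nearly equal. The 12 mtDNA mRNAs took 0.451% to 1.81% of the counts, and the 7 members together took 7.32% to 15.9% of the mtDNA mRNA counts. In CB4856 against N2, 16.1% of all genes tested were called by edgeR in either direction. Among the marker lists, 7 of 12 oocyte genes were called in that comparison, all lower in CB4856. Their summed level was 376 to 923 CPM in CB4856 and 324 to 2217 CPM in N2, and no gene of the molting, sperm, body-wall muscle or vitellogenin lists was called in that comparison. Of 3 male genes tested, *plg-1* was called, lower in CB4856 (log2 fold change -2.65, adjusted p = 0.00529, edgeR). The RIAIL QX501 had the highest summed level of 6 male genes (114 CPM, median of the RIAILs 6.76 CPM), and the tests over RIAILs were also run without it.

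The members differed widely in abundance as counted. The paper does not state how RNA was selected before sequencing, and the part of transcript capture in these levels was not tested. Levels between genes are given as CPM per kb, which is CPM (read counts scaled to a common library size by the trimmed mean of M values, TMM, over all 95 libraries) divided by the gene's length. In the RIAILs *ND1* averaged 336 ± 92.6 CPM per kb, *ND4* 265 ± 66.9, *ND5* 174 ± 46.04, *ND3* 57.2 ± 26.1, *ND2* 30.8 ± 29.4, *ND6* 2.65 ± 0.993 and *ND4L* 0.899 ± 0.517 CPM per kb (SD, n = 85). By mean, the order of the 7 genes was the same in CB4856 and in N2. *ND1* was above *ND4* in 84 of 85 RIAILs and in all 10 parental libraries, and *ND4* was above *ND5* in all 95 libraries. *ND5* was above *ND3* in all 95 libraries. *ND3* and *ND2* were the neighbours that changed places most often, with *ND3* the higher in 66 of 85 RIAILs, 6 of 6 CB4856 libraries and 3 of 4 N2 libraries. *ND2* was above *ND6* in 76 of 85 RIAILs and in all 10 parental libraries. In N2 the means of *ND3* (43.7 ± 18.4 CPM per kb) and *ND2* (39.9 ± 11.2 CPM per kb, SD, n = 4) lay within their spread.

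**Figure D1:**
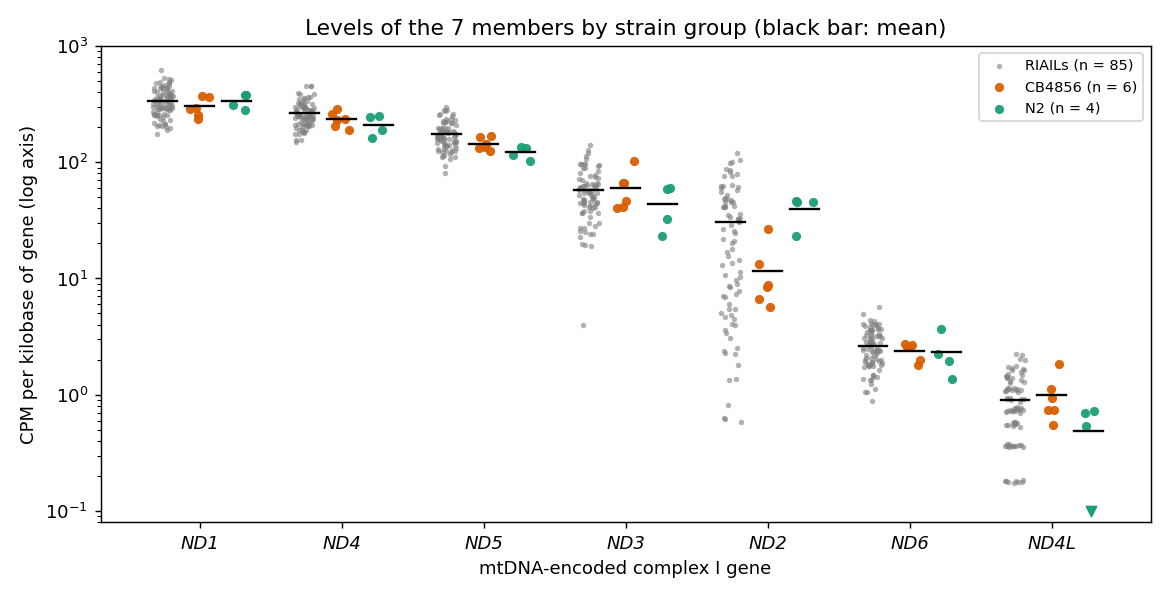
Levels of the 7 members in CPM per kb on a log axis, with 1 point per library and the mean as a black bar, for RIAILs, CB4856 and N2. *ND2* has the tallest cloud, from 0.581 to 119.7 CPM per kb in the RIAILs, and the triangle marks the N2 library in which *ND4L* had 0 counts.

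Every member stood below the mRNAs of the other respiratory complexes. In the RIAILs the 5 other mtDNA mRNAs averaged 754 CPM per kb for *COX2* to 2197 CPM per kb for *COX3*, and *COX2*, the lowest of them, was above *ND1* in 85 of 85 RIAILs and in all parental libraries. *ND1*, *ND4* and *ND5* supplied 89.4% to 98.9% of the members' counts in each library. *ND6* had 9 to 62 counts and *ND4L* 0 to 12 counts per library, so their values are coarse. For *ND4L* the coefficient of variation over RIAILs was 57.5%, beside 45.2% from counting error alone. For *ND6* these values were 37.5% and 19.3%, while for the other members counting error was at most 4.74%.

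*ND2* was the only tested member called by its level between the parental strains. It had 538, 134, 176, 114, 268 and 170 counts in CB4856 libraries A2, B4, C2, E2, F2 and G2, against 968, 473, 961 and 944 counts in N2 libraries B2, D38, F42 and G34. As TMM-scaled CPM these were 23.3, 5.90, 7.70, 4.96, 11.6 and 7.42 CPM in CB4856 and 39.8, 20.3, 40.8 and 39.7 CPM in N2. The groups met only where the highest CB4856 library, A2, passed the lowest N2 library, D38. The log2 fold change of CB4856 over N2 was -1.75 (SE 0.41, adjusted p = 0.0161, edgeR quasi-likelihood test with Benjamini-Hochberg adjustment over all genes tested). *ND2* was lower in CB4856 in each of the 3 library series that hold both strains, by log2 differences of -2.73, -1.80 and -2.41 in series B, F and G. Without A2 the fold change was -2.19 on the log2 scale (adjusted p = 0.000688). This widening was fixed in advance, since A2 was the highest CB4856 library, and it is no support for the call. With the first principal component of the libraries as a covariate the fold change was -1.71 on the log2 scale (adjusted p = 0.00991). The oocyte genes were also lower in CB4856, and their part in this difference was not tested.

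*ND2* was 1 of 6 members called in this comparison, close to the rate over all genes tested, of which 16.1% were called. The 2525 genes behind that share became 481 with library series as a block, 4604 without N2 replicate 1 and 1570 without N2 replicate 3. *ND4L* was too low to pass the filter on low counts and was not tested. *ND5* had 226, 215, 199, 208, 259 and 267 CPM in CB4856 and 215, 163, 181 and 208 CPM in N2, overlapping groups with a log2 fold change of 0.30 (SE 0.13, adjusted p = 0.141). *ND3* spanned 13.6 to 34.2 CPM in CB4856 and 7.86 to 19.96 CPM in N2, a log2 fold change of 0.51 (adjusted p = 0.36). *ND4* (0.20), *ND6* (0.10) and *ND1* (-0.11) had smaller log2 fold changes, with adjusted p of 0.464, 0.853 and 0.689. The parental groups of these 5 members overlapped.

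Shares of the mtDNA mRNA counts do not depend on how a library is scaled to its nuclear transcripts. *ND2* made up 0.0774% to 0.215% of mtDNA mRNA counts in CB4856 and 0.382% to 0.700% in N2, with no overlap. The mean shares were 0.132% ± 0.0569 in CB4856 (SD, n = 6) and 0.53% ± 0.134 in N2 (SD, n = 4), with p = 0.00952 in a two-sided exact permutation test, the smallest p that 210 assignments allow. *ND1* made up 3.64% ± 0.506 in CB4856 (n = 6) and 4.44% ± 0.347 in N2 (n = 4), with p = 0.0190 in the exact test, and these groups overlapped. Of the 12 mtDNA mRNAs 33.3% had p under 0.05 before adjustment, namely *ND2*, *ND1*, *ATP6* and *COX1*, and adjusted over the 12 all 4 had p = 0.0571 in that exact test. The other 5 members had unadjusted p of 0.0667 to 0.838.

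Among the RIAILs *ND2* ran from 12 counts (0.511 CPM, QX597) through a median of 428 counts (19.2 CPM) to 2234 counts (105 CPM, QX536). QX490 and QX598 had 13 counts each, close to QX597, and QX503 and QX501, next below QX536, had 2174 and 2084 counts. The line with the highest level thus had 206 times that of the line with the lowest. The lines formed a continuous series, with the 25th percentile at 4.80 CPM and the 75th at 41.8 CPM. Of 85 RIAILs, 22 lay below every parental library, 22 above every parental library and 41 between the parental extremes. Both ends therefore went beyond the parental libraries. Some other mtDNA genes had such lines too. For *ND5* 2 RIAILs lay below and 41 above every parental library, for *ND1* 13 and 25, and for *ND4L* 0 and 4. For the small mitochondrial rRNA the numbers were 23 and 26. With 85 single libraries set against few parental ones, such counts do not by themselves show a strain effect.

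**Figure D2:**
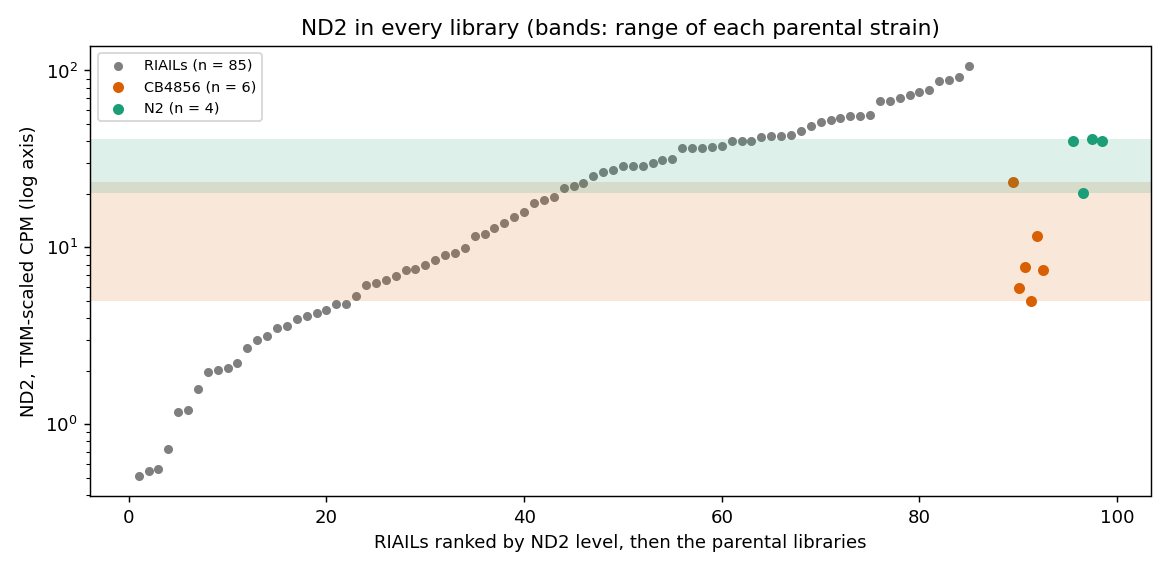
*ND2* level in TMM-scaled CPM on a log axis, with the 85 RIAILs ranked from lowest to highest and the CB4856 and N2 libraries at the right; bands mark the range of each parental strain. The lines run from 0.511 to 105 CPM without a gap between low and high lines, and 44 of 85 lie outside the span of the parental libraries.

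The test of equality of the 85 lines, with the residual spread taken from the parental libraries (8 degrees of freedom), called *ND2* (F = 6.76, adjusted p = 0.0204, edgeR). It was 1 of 7 members called, against 5.52% of all genes tested (941 genes, and 1930 without N2 replicate 1). *ND5* (adjusted p = 0.0791) and *ND1* (adjusted p = 0.225) came next and did not pass. The SD of *ND2* over the RIAILs was 1.95 on the log2 CPM scale, 2.79 times the SD of 0.699 within the parental strains. For *ND5* these SDs were 0.380 and 0.176, for *ND1* 0.401 and 0.245, and for *ND4* 0.355 and 0.250 on the same scale. Because lines and library series are nested in each other, this test counts any difference between series as a difference between lines.

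*ND3* had a single line far below the rest. QX514 had 31 *ND3* counts (1.32 CPM), the next lowest lines, QX570 and QX544, had 147 counts each, and the median line had 420 counts. QX519 was the highest with 1165 counts. In QX514 the adjoining gene *ND5*, which shares a base with *ND3*, had 218 CPM, within the range of the other lines. The log2 ratio of *ND5* to *ND3* was 7.36 in QX514, the highest of the RIAILs (median 3.93), which follows from its low *ND3* count. *ND1* ran from 152 CPM in QX539 to 537 CPM in QX536, *ND4* from 196 CPM in QX520 to 592 CPM in QX503, and *ND5* from 129 CPM in QX520 to 470 CPM in QX589. These ranges are far narrower than that of *ND2*. The lines at the ends recurred, with QX520 lowest for *ND4* and *ND5* and QX536 highest for *ND1* and *ND2*. QX520 also had the highest summed oocyte level of the RIAILs (2561 CPM, median 598 CPM), and its part in these values was not tested.

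As a group the RIAILs were not called different from CB4856 or from N2 for any member. Against CB4856, 0 of 7 members were called by edgeR and by limma-voom, none had an unadjusted p under 0.05, and 0.0997% of all genes were called (17 genes, against 143 by voom, and 2 to 6 with any 1 CB4856 library left out). Against N2, 0 of 7 were called by either tool, 1 had an unadjusted p under 0.05, and 9.97% of all genes were called (1700 genes, and 62, 77 and 559 without N2 replicates 3, 2 and 4). The member was *ND5*, at a median of 266 CPM in the RIAILs (129 to 470 CPM) and 195 CPM in N2 (163 to 215 CPM), a log2 fold change of 0.52 (SE 0.20, adjusted p = 0.0715). In the same comparison 5 of 12 oocyte genes were called, all lower in the RIAILs (median log2 fold change -1.11 over the 12), and their part in the *ND5* value was not tested. For *ND2* the log2 fold change was 1.42 (SE 0.77, adjusted p = 0.539) against CB4856 and -0.37 (SE 0.77, adjusted p = 0.83) against N2. The 2 comparisons share the RIAIL libraries.

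*ND1* and its overlapping neighbour *ATP6* stood in a different proportion in N2 from all other libraries, a contrast chosen after the values were seen and given without a test. The RIAILs had log2 ratios of *ND1* to *ATP6* counts between -1.72 and -0.77, with a median of -1.13. The CB4856 libraries lay between -1.53 and -1.02, and the N2 libraries between -0.67 and -0.42. All 85 RIAILs and all 6 CB4856 libraries were below all 4 N2 libraries, and 61 of 85 RIAILs were within the CB4856 range. Oocyte genes also set N2 apart. In CB4856 7 of 12 were called lower, where 16.1% of all genes tested were called in either direction. In the RIAILs 5 of 12 were called lower, where 9.97% of all genes tested were called in either direction. The part of the oocyte genes in the ratio was not tested. *ATP6* made up 7.34% to 9.88% of mtDNA mRNA counts in CB4856 and 6.22% to 7.11% in N2, without overlap. In the fits across all genes the log2 fold change of *ATP6* was 0.55 in CB4856 over N2 (adjusted p = 0.104, edgeR) and 0.63 in the RIAILs over N2 (adjusted p = 0.0843, edgeR), and neither was called. These comparisons share the 4 N2 libraries. CB4856 has no library in series D and N2 has none in A, C or E, and in each of the shared series B, F and G the ratio was lower in CB4856.

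**Figure D3:**
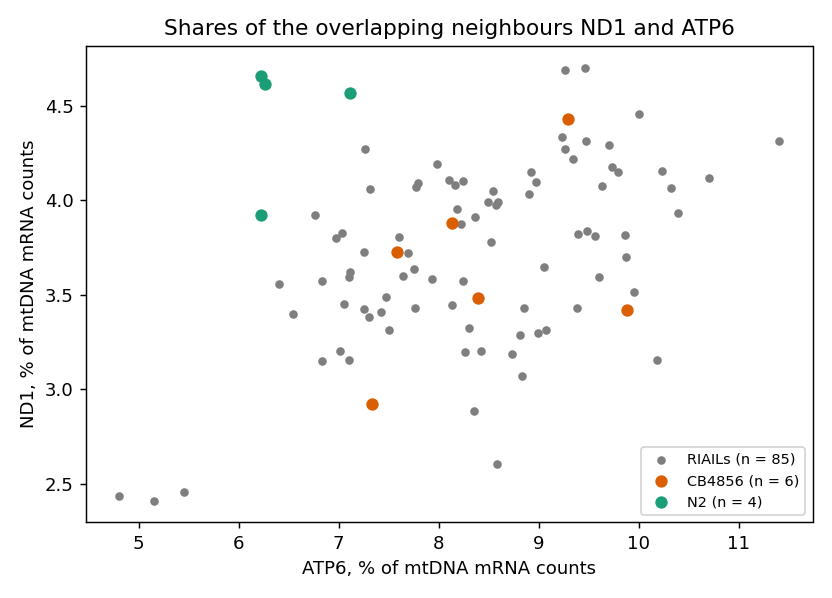
*ND1* against *ATP6*, each as a percentage of the 12 mtDNA mRNAs' counts, with 1 point per library. The 4 N2 libraries have ND1 at 3.92% to 4.66% and ATP6 at 6.22% to 7.11%. They lie apart from CB4856 in the ratio of ND1 to ATP6 and in the ATP6 share. From the RIAILs they lie apart in that ratio and not in either share alone. RIAIL QX520, for example, had ND1 at 3.92% and ATP6 at 6.77%.

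The library series, the letters A to G in the library names, were compared over the 85 RIAILs. Lines of one letter are not those of another, so line and series cannot be told apart for any single library. Of 6 members tested, 5 differed between series, where 61.4% of all genes tested did. They were *ND1* (adjusted p = 1.11e-06), *ND4* (4.22e-06), *ND3* (0.000262), *ND6* (0.0264) and *ND5* (0.0277, all adjusted p from edgeR). *ND6* was no longer called with the molting, sperm and oocyte scores as covariates (adjusted p = 0.16). *ND2* was the tested member without a call (adjusted p = 0.536), and series accounted for 11.01% of its variance in log2 CPM, against 40.7% for *ND1*, 36.6% for *ND4*, 27.5% for *ND3*, 16.6% for *ND6* and 15.5% for *ND5*.

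Series A, D, F and G held the calls when 1 series was set against the others. Of all genes tested 19.2% were called in A, 8.87% in D, 21.8% in F and 2.77% in G, beside 10.1% in B, 27.1% in C and 7.39% in E. The median *ND1* level was 391 CPM in series G (n = 14), 348 CPM in A (n = 7), 325 CPM in B (n = 10), 314 CPM in E (n = 11), 257 CPM in C (n = 11), 250 CPM in F (n = 19) and 223 CPM in D (n = 13). Against the mean of the other series, the log2 difference of *ND1* was 0.40 in G (adjusted p = 0.00468), 0.39 in A (0.0198), -0.43 in D (0.00821) and -0.30 in F (0.00679, all adjusted p from edgeR). *ND4* was called in the same 4 series and in the same directions, at 0.31, 0.38, -0.45 and -0.26 on the log2 scale. *ND3* was higher in A (0.85, adjusted p = 0.00385, edgeR) and lower in F (-0.55, adjusted p = 0.00908, edgeR), *ND6* was lower in F (-0.46, adjusted p = 0.0122, edgeR), and *ND5* was lower in D (-0.34, adjusted p = 0.044, edgeR). No member was called in B, C or E, and *ND2* was called in no series.

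**Figure D4:**
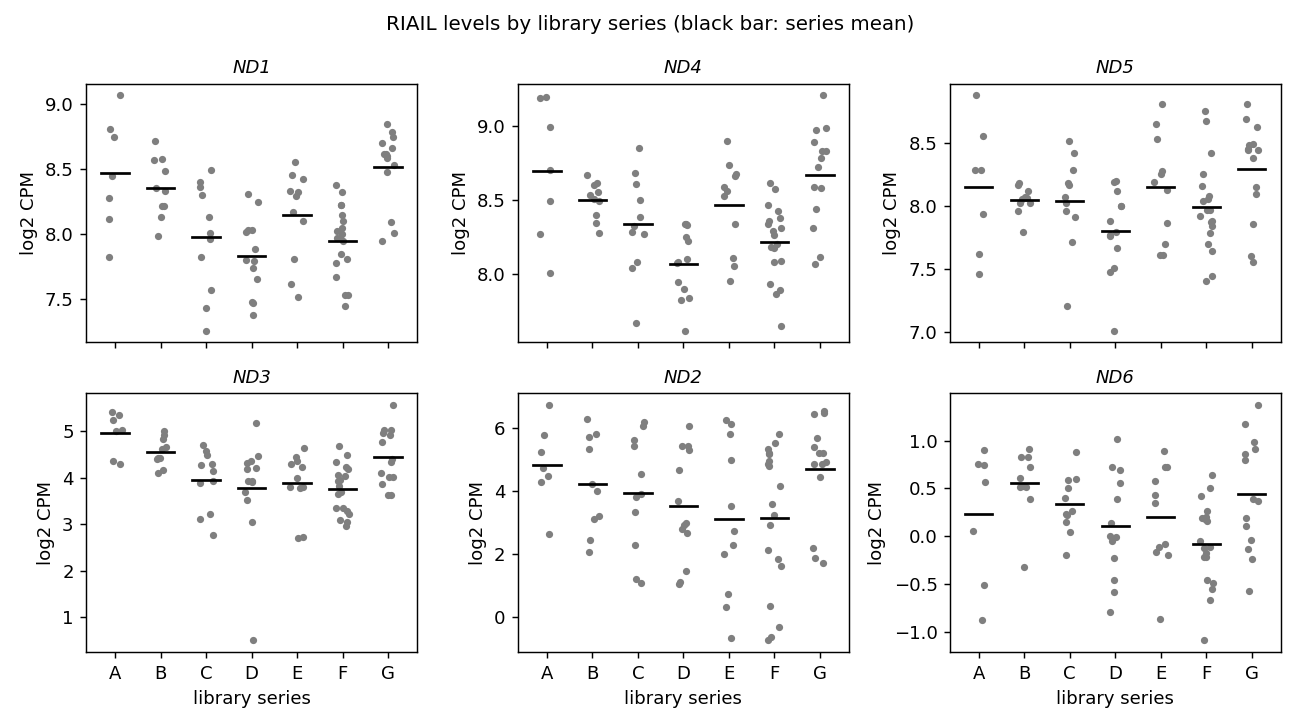
Log2 CPM of 6 members in the 85 RIAILs by library series, with 1 point per line and a black bar at the series mean. *ND1* and *ND4* shift between series, with series D lowest, while *ND2* scatters widely within every series (SD 1.28 to 2.44 on the log2 CPM scale); the low *ND3* point in series D is QX514.

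Within the RIAILs the members rose and fell together to different degrees. All 21 pairs correlated positively on the log2 CPM scale (Pearson's r 0.30 to 0.93), each with an adjusted p under 0.05 in permutation tests over 85 lines. The share of other gene pairs that pass such a test is not given here, so the passes are not read as a trait of the members. In 13 of the 21 pairs r was below 0 in at least 1 series, down to -0.58 for *ND1* and *ND6*. *ND1* and *ND4* were closest (r = 0.93, rho = 0.93, within series 0.62 to 0.98), followed by *ND4* and *ND5* (r = 0.87, rho = 0.87, within series 0.81 to 0.96) and by *ND1* and *ND5* (r = 0.80, rho = 0.81, within series 0.57 to 0.91). For each of these the adjusted p was 1.3e-05, from the smallest p that 100000 permutations can give (1e-05). Leaving out the 2 lines farthest from the median gave r = 0.93, 0.85 and 0.77. *ND2* tracked *ND1* (r = 0.70, rho = 0.70, adjusted p = 1.3e-05 by permutation, within series 0.47 to 0.87, 0.69 without 2 lines). As shares of mtDNA mRNA counts, which remove a common shift of all mtDNA mRNAs, *ND2* and *ND1* correlated at r = 0.55, and the 21 pairs ran from -0.25 for *ND3* and *ND5* to 0.69 for *ND4* and *ND5*, with 5 below 0. *ND3* and *ND5*, which adjoin on the genome, had one of the weaker correlations (r = 0.36, rho = 0.35, adjusted p = 0.0007 by permutation, within series -0.54 to 0.67, r = 0.33 without 2 lines).

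*ND1* was closer to *ATP6* (r = 0.91) than to any member except *ND4*, and *ND2* was closer to *ND1* (0.70) than to *ATP6* (0.61), as a description over 85 lines. The small mitochondrial rRNA, whose level also ranged widely (SD over RIAILs 0.734 on the log2 CPM scale, 2.59 times the SD within parental strains), showed r between -0.01 and 0.09 with the members. The large rRNA (SD over RIAILs 0.536 on the same scale, 2.15 times the SD within parental strains) had positive r with all 7, between 0.26 for *ND2* and 0.44 for *ND4*. These r values share libraries and scaling. Over all libraries the median count was 1226 for the small and 161 for the large rRNA, and the selection of RNA before sequencing is not stated in the paper.

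The nuclear-encoded side of complex I was read as a score, the mean z score of log2 CPM over 35 nuclear complex I genes. All 7 members passed the test with it. Of 14277 nuclear genes outside the list, 14.4% had an r at least that of *ND3*, the lowest member, and 3.97% at least that of *ND1*, the highest. Over the 85 lines it correlated with *ND1* (r = 0.52, rho = 0.52, adjusted p = 0.00023), *ND5* (r = 0.46, rho = 0.44, adjusted p = 0.00023), *ND4* (r = 0.44, rho = 0.45, adjusted p = 0.00041) and *ND2* (r = 0.40, rho = 0.41, adjusted p = 0.00085, permutation tests adjusted over 35 relations). Within series r was 0.43 to 0.72 for *ND1*, 0.41 to 0.77 for *ND5*, 0.33 to 0.62 for *ND4* and 0.12 to 0.75 for *ND2*, above 0 in all 7. Without QX500 and QX541, the lines farthest from the median score, r was 0.55, 0.48, 0.46 and 0.48 for *ND1*, *ND5*, *ND4* and *ND2*. *ND6* (r = 0.28, adjusted p = 0.023), *ND4L* (r = 0.24, adjusted p = 0.046) and *ND3* (r = 0.24, adjusted p = 0.048, all permutation) were weaker, and their r went below 0 in at least 1 series. With the molting, sperm and oocyte scores regressed out, *ND1* (r = 0.43), *ND5* (r = 0.39) and *ND4* (r = 0.34) kept adjusted p of 0.001, 0.0045 and 0.014, whereas *ND2* had r = 0.28 (adjusted p = 0.056, permutation tests).

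**Figure D5:**
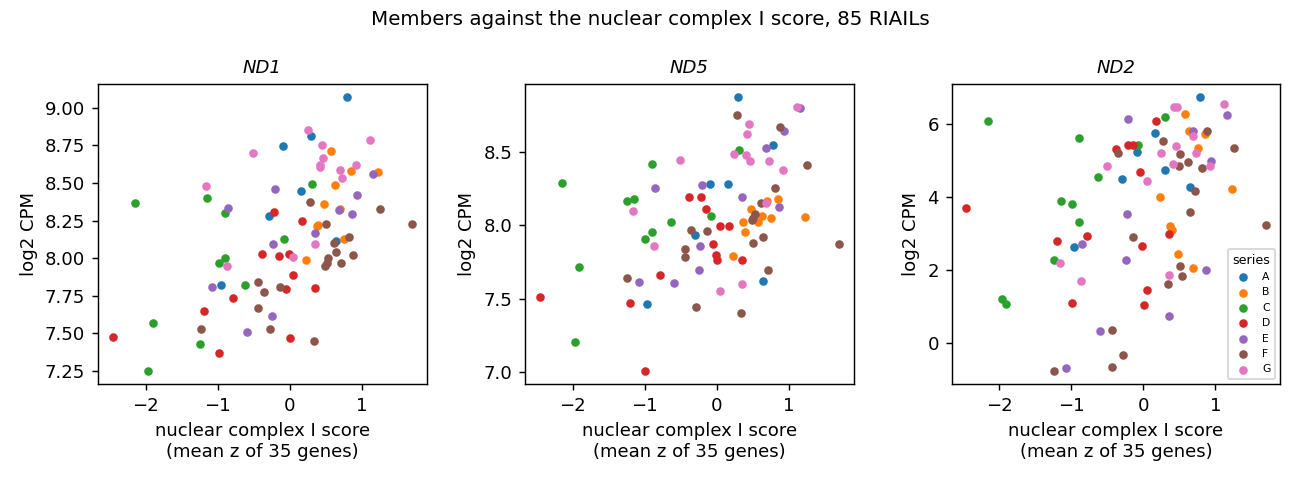
Log2 CPM of *ND1*, *ND5* and *ND2* (y axes) against the nuclear complex I score (x axis, mean z score of 35 genes) in 85 RIAILs, coloured by library series. Each cloud rises to the right, with r = 0.52, 0.46 and 0.40, and *ND2* has the widest vertical scatter.

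*ND3* passed the test with neither the oocyte nor the sperm score. The share of all genes that pass these tests was not counted, so the passes below are not read as a trait of the members. The oocyte score correlated negatively with *ND4* (r = -0.44, adjusted p = 0.00023), *ND1* and *ND5* (r = -0.42 for both, adjusted p = 0.00041), *ND6* (r = -0.35, adjusted p = 0.0049), *ND2* (r = -0.33, adjusted p = 0.0075) and *ND4L* (r = -0.25, adjusted p = 0.046, all permutation), with rho from -0.43 to -0.26. For *ND4*, *ND1*, *ND5* and *ND2* the sign was the same in all 7 series. The sperm score had r of -0.30 to -0.24 with *ND1*, *ND2*, *ND4*, *ND5* and *ND6* (adjusted p 0.0155 to 0.0457, permutation). The molting score had an adjusted p under 0.05 with *ND5* alone (r = 0.24, rho = 0.20, adjusted p = 0.046 for r by permutation), and without the 2 lines farthest from the median its r was 0.16. In whole worms less mtDNA transcript per cell cannot be told apart from a smaller part of the tissue that holds it, and the part that stage had in these correlations was not tested beyond the regression above. *hsp-6*, the mitochondrial chaperone used as a reporter of mitochondrial stress, correlated with *ND5* (r = 0.28, rho = 0.27, adjusted p = 0.023) and *ND2* (r = 0.26, rho = 0.31, adjusted p = 0.037, permutation), positive in 5 and 7 of 7 series. *ND6* ran the other way (r = -0.23, rho = -0.25, adjusted p = 0.0498, permutation), with r above 0 in 2 of 7 series.

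Among 14312 nuclear genes with a mean of at least 1 CPM in the RIAILs, those most like the mean of the 7 members included many nuclear complex I genes. That mean was taken over log2 CPM without rescaling, so *ND2* weighs most in it. Its SD over the RIAILs was 1.95 on that scale, against 0.355 to 0.755 for the other members. The 5 highest by Pearson's r over 85 lines were *nduv-2* (0.59), *nduf-9* (0.55), *coq-6* (0.55), *ndub-10* (0.54) and *nuo-2* (0.53). All but *coq-6*, a ubiquinone synthesis gene, are on the nuclear complex I list, and 10 of the 20 highest were. The 5 lowest were WBGene00004179, which has no symbol in the annotation used (-0.51), *enu-3.2* (-0.51), the mitotic kinase *plk-1* (-0.50), the akirin *akir-1* (-0.50) and the cell cycle gene *cks-1* (-0.49). For *ND2* alone, looked at after its values were seen, the 5 highest were *rad-8* (0.61), *dnj-10* (0.56), *haf-3* (0.56), *nduv-2* (0.56) and *lias-1* (0.54), and 4 of the 20 highest were on the nuclear complex I list.

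The nuclear-encoded list did not share the parental pattern of *ND2*. Of 35 nuclear complex I genes, 2 were called in CB4856 against N2, where 16.1% of all genes tested were called. They were *nuo-5*, higher (log2 fold change 0.30, SE 0.07, adjusted p = 0.0175), and *ndab-1*, lower (-0.46, SE 0.10, adjusted p = 0.0124, edgeR). The median log2 fold change of the 35 was 0.0046, beside -0.0048 over all genes tested. The other extreme log2 fold changes, not called, were *gas-1* (0.28) and *nduf-9* (0.22) at the upper end and *nduf-2.2* (-0.33) and *ndua-8* (-0.20) at the lower. The assembly factor gene *nuaf-3* was higher in CB4856 (0.48, SE 0.10, adjusted p = 0.00818, edgeR), and *nuaf-1* was not called (-0.18). Of 8 genes for mtDNA expression and maintenance, edgeR called 0, where 16.1% of all genes tested were called. *polg-1*, the mtDNA polymerase, was closest (0.47, adjusted p = 0.0541, edgeR), and 4 had an unadjusted p under 0.05. The share of all genes at that unadjusted p is not given here, so the 4 are not read as a trait of the list. The mitochondrial chaperone genes *hsp-6* (0.59, adjusted p = 0.0112, edgeR) and *hsp-60* (0.61, adjusted p = 0.0295, edgeR) were higher in CB4856. Among the RIAILs edgeR called 0 of 35 nuclear complex I genes for variation, with 0 at an unadjusted p under 0.05, where 5.52% of all genes tested were called. All 35 differed between library series, where 61.4% of all genes tested did. The test among RIAILs has only 8 residual degrees of freedom, and lines are nested in series. The counts from these tests therefore cannot be set against each other.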

How the data were processed

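The files deposited by the authors hold raw counts of reads for each gene. Reads came from a BGISEQ-500, passed FastQC and were mapped by STAR, version 2.73a, on WBcel235. No source used here names the counter, its strand setting or the annotation release. All 95 columns were matched to samples by library name. No pair of libraries had identical counts. Symbols of mtDNA genes came from a RefSeq table (WBcel235), matched by coding start.

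Tests across genes used edgeR 4.0.16 (TMM, filterByExpr, quasi-likelihood F) at an adjusted p under 0.05. DESeq2 1.42.0 and the voom method of limma 3.58.1 served for comparison, all under R 4.3.3. Permutation tests used scipy 1.17.1 and numpy 2.4.6 under Python 3.11.15. Log2 CPM used a prior count of 2. Scripts were tested on simulated data. Titles number 4 libraries of each parental strain as batches, taken as pairs on that ground. Their deviations correlated at r = 0.68, 0.19, 0.09 and -0.51, and those of libraries with unlike batch numbers at -0.68 to 0.63. The pairing thus rests on the titles alone. Genes named are the 7 members, other mtDNA mRNAs and rRNAs, the 5 highest and lowest by r, listed genes and the extreme nuclear complex I genes. The members and lists were chosen with earlier results of these data known. Alternatives were other scalings, filters, tools, blocks, covariates and libraries left out.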

Additional observations from a re-analysis of the deposited data

Results flagged for a closer look

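In 28 sets of values (7 members, as CPM and as share of mtDNA mRNA counts, in CB4856 and N2), Dixon's test flagged 3 libraries, where chance flags about 1 in 20 sets. CB4856 library A2 had 23.3 CPM of *ND2*, with the next highest CB4856 library at 11.6 CPM and the lowest at 4.96 CPM. N2 library D38 had 20.3 CPM of *ND2*, with the other N2 libraries at 39.7 to 40.8 CPM. N2 library B2 had an *ND1* share of 3.92% of mtDNA mRNA counts, with the others at 4.56% to 4.66%.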

How the results depend on the processing

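The call of *ND2* in CB4856 against N2 held in every fit run, with log2 fold changes of -2.29 to -1.60 and adjusted p of 0.000438 to 0.0495, the highest without N2 replicate 3 (F42). With the replicate block by batch number over 8 libraries it was -2.12 (adjusted p = 0.000847), and the block changed no other member's call. The count of all genes called was 2525 (1381 higher, 1144 lower), and 481 with library series as a block, 1652 with the replicate block, 1566 for those 8 libraries without it, 3865 with the first principal component, 4604 without N2 replicate 1 and 1570 without N2 replicate 3. Library totals moved the median of all genes to -0.10 on the log2 scale and the calls to 1050 higher and 1697 lower. Over RIAILs the count was 941, 1930 without N2 replicate 1 and 615 at a mean of at least 1 CPM. For RIAILs against N2 it was 1700, and 62 without N2 replicate 3, 77 without replicate 2, 559 without replicate 4 and 978 with no filter. For RIAILs against CB4856 it was 17, 143 by voom, 29 with library series as a block and 2 to 6 with 1 CB4856 library left out. The call of *ND2* among RIAILs held with adjusted p of 0.00258 to 0.049. The count of members with a share at exact p under 0.05 was 2, and 2 to 4 with 1 parental library left out, the 4 being *ND4L*, *ND1*, *ND2* and *ND3* without N2 replicate 3. Over the 4 within-batch pairs, the *ND2* share differed by -0.40 percentage points in the mean, at p = 0.125 in the exact test, the smallest 4 pairs allow. The count of members correlated with the nuclear complex I score was 7, and 3 (*ND1*, *ND4*, *ND5*) on residuals from the stage scores. *ND3* and *ND4L* passed narrowly and missed the threshold with library totals and without QX501, *ND3* also when centred within series. No result reversed. Low counts limit *ND4L* and *ND6*, and 8 residual degrees of freedom limit the test among RIAILs.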
